A study of Mus musculus with 6 samples.

Results

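The genes examined were those that bring calcium into CD4+ T cells and those that hold and release it from the endoplasmic reticulum (ER). They were chosen by symbol: *Stim1*, *Stim2*, *Orai1*, *Orai2*, *Orai3*, *Itpr1*, *Itpr2*, *Itpr3*, *Atp2a3* and *Atp2b1*. All 10 were matched, among 35602 genes of the count table and 34714 genes of a separate pair of libraries. In T cells, antigen receptor signaling produces inositol trisphosphate (IP3), which opens IP3 receptors in the ER membrane and empties the store. The Stim proteins sense the falling store and open Orai channels in the plasma membrane, and pumps return calcium to the store or expel it from the cell. The sustained entry that follows activates calcineurin and moves NFAT factors into the nucleus.

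CD4+ T cells from mouse spleen received anti-CD3/CD28 stimulation during 72 h of culture, with DMSO as vehicle or with MAPK13-IN-1, an inhibitor of the kinase Mapk13, and their RNA was sequenced. There were 3 libraries per group. Replicates 2 and 3 came from wild-type mice, and their labels put the addition of DMSO or of 17.1 µM inhibitor after day 1 of culture, whereas the series record and a figure legend have it present for 72 h. Replicate 1 of each group was prepared with another kit, and its labels give no genotype, dose or time of addition. The count libraries of replicates 2 and 3 held 26874805 and 28487403 counts under DMSO, and 33854760 and 32617702 counts under MAPK13-IN-1. The replicate 1 pair was deposited as values read here as FPKM, with unknown depth. No label states that the replicates were separate cultures or animals, so p-values measure only the spread between these libraries, which may be technical.

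The labelled cell type was checked against marker genes, because a splenic preparation can hold other cells, although the methods name a CD4 T cell isolation kit and the series record calls the cells sorted. Levels are CPM, counts relative to the TMM-scaled library size, and are divided by exon length where genes are compared. *Cd4* stood at 68.1 and 68.4 CPM per kilobase in the DMSO libraries and at 66.2 and 70.2 in the MAPK13-IN-1-treated libraries of replicates 2 and 3. In the replicate 1 pair it was listed at 118 and 146 FPKM. In these bulk libraries, fewer cells of a type cannot be told apart from less RNA per cell.

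The marker lists differed between treatments. Fell and rose mean an adjusted p under 0.05 in edgeR's quasi-likelihood test. The numbers that fell and rose stand beside 32.3% and 31.5% of all genes tested. Of 10 CD4+ T cell markers, 7 were matched, 6 fell and 0 rose, and their summed level was 1664 and 1695 CPM under DMSO against 903 and 1025 CPM under MAPK13-IN-1. The most abundant per length was *Lck* under DMSO and *Cd4* under MAPK13-IN-1, and none was at 0. Of 12 B cell markers, 10 were matched, 7 rose and 2 fell, with sums of 1142 and 1119 CPM against 1311 and 1334 CPM, led per length by *Cd79b* and with none at 0. Such B cell sums go against a pure CD4+ T cell sample in both groups. They were of the same order as the T cell sums under DMSO and above them under MAPK13-IN-1. The sums cover 10 B cell and 7 T cell genes and are not divided by exon length. In the replicate 1 pair the sums were 1024 and 934 FPKM for the T cell list, and 52.3 and 36.5 FPKM for the B cell list. Thus the B cell sum was higher with MAPK13-IN-1 in replicates 2 and 3 and lower in replicate 1.

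Markers of other cells summed to less than the T cell and B cell lists. Still, *Hbb-bs* stood at 38.4 and 28.6 CPM per kilobase in the MAPK13-IN-1-treated libraries, within the range of the calcium genes. In the order below, 5, 6, 7 and 5 genes of these lists were tested. Their numbers lower and higher stand beside 32.3% and 31.5% of all genes tested. The 8 CD8 T and NK cell markers summed to 15.4 and 15.3 CPM under DMSO and to 11.2 and 13.0 CPM under MAPK13-IN-1, led by *Cd8b1*, with 2 lower, 1 higher and none at 0 in all 4 libraries. The 10 macrophage and neutrophil markers summed to 3.41 and 2.90 CPM against 14.0 and 10.7 CPM, led per length by *Lyz2*, with 5 higher and *S100a9* at 0. The 8 erythroid markers summed to 7.83 and 7.54 CPM against 90.0 and 64.6 CPM, led by *Hbb-bs*, with 6 higher and none at 0. The 8 platelet markers summed to 61.7 and 54.0 CPM against 65.9 and 59.1 CPM, led by *Itgb3*, with 3 higher and *Ppbp* and *Treml1* at 0. A count of 0 allows up to 3 counts, or 0.0845 to 0.116 CPM depending on the library. In the replicate 1 pair these 4 lists summed, under DMSO and then MAPK13-IN-1, to 5.14 and 15.0, 0.764 and 1.79, 0.931 and 1.94, and 4.21 and 11.5 FPKM. The part of any of these cells in the results on calcium genes was not tested.

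The first comparison asked how the calcium genes differed between MAPK13-IN-1-treated and DMSO-treated cells of replicates 2 and 3. Transcripts of the sensors and channels differed in direction between paralogs: *Stim2*, *Orai1* and *Orai2* fell, while *Stim1* and *Orai3* rose. All 3 IP3 receptor genes rose, by 16.7% to 43.3%, and both pumps, *Atp2a3* and *Atp2b1*, fell, by 25.4% and 20.9%. Hence 5 of the 10 genes were lower and 5 higher in edgeR's quasi-likelihood test at an adjusted p under 0.05, a threshold that 63.8% of the 16269 genes tested passed, 32.3% as lower and 31.5% as higher. The changes were small: none of the 10 exceeded an absolute log2 fold change of 1, which 23.4% of all genes did while passing the test. Their median log2 fold change was -0.08, against 0.01 over all genes tested, and with scaling by library totals it was 0.044, against 0.14 over all genes. In each of the 10 genes, the MAPK13-IN-1-treated libraries did not overlap the DMSO-treated libraries, as in 83.0% of all genes tested, and 2 libraries against 2 give an exact permutation p of 0.333 at the smallest. The number of the 10 called higher was 2 on leaving out DMSO replicate 2, and 3 on leaving out DMSO replicate 3.

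**Figure D1:**
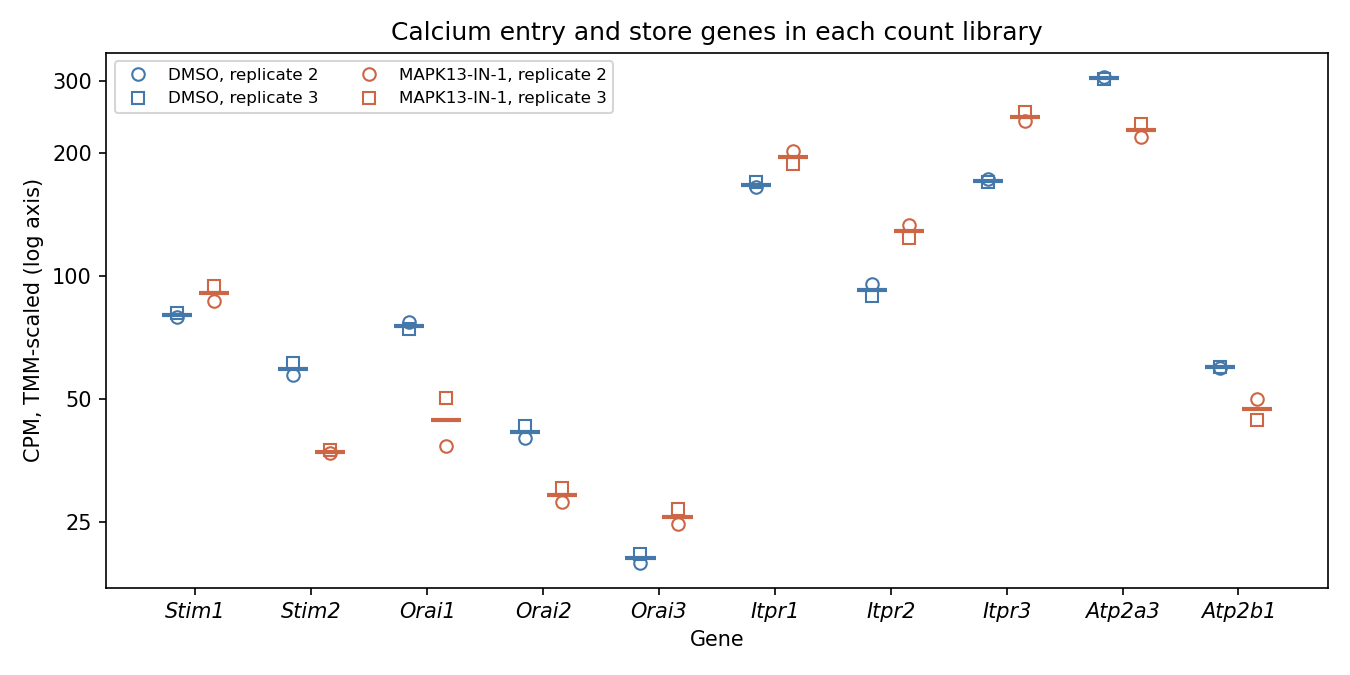
CPM (TMM-scaled, log axis) of the 10 calcium genes in each count library. Circles are replicate 2, squares replicate 3, blue DMSO, orange MAPK13-IN-1, and bars the mean of the 2 libraries. The 2 colors do not overlap in any gene, as in 83.0% of all genes tested, and on this axis the widest gap between replicates is in *Orai1* under MAPK13-IN-1, at 38.4 and 50.2 CPM.

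The ER calcium sensors changed in opposite directions. *Stim1* (chromosome 7, 102267806 to 102437319), which oligomerizes when the store empties and gates Orai1, was at 79.1 and 81.2 CPM in the DMSO libraries and at 86.7 and 94.4 CPM in the MAPK13-IN-1-treated libraries. The treated libraries were both above the DMSO libraries, with the nearest libraries of the groups close together. The log2 fold change was 0.18 ± 0.0675 (SE) with an edgeR adjusted p of 0.0416, the weakest call of the 10. *Stim2* (chromosome 5, 53998499 to 54121057), which responds to smaller losses of stored calcium and maintains the resting level, was at 57.2 and 61.2 CPM under DMSO and at 36.9 and 37.4 CPM under MAPK13-IN-1. The groups were well separated and the treated libraries almost equal. The log2 fold change was -0.67 ± 0.0750 with an edgeR adjusted p of 2.43e-05. The call on *Stim1* depended on single libraries: the edgeR adjusted p was 0.299 on leaving out DMSO replicate 2, 0.172 on leaving out DMSO replicate 3 and 0.118 on leaving out MAPK13-IN-1 replicate 3, while DESeq2 on all 4 libraries gave an adjusted p of 0.0817. Over all alternatives the adjusted p of *Stim1* ran from 0.000275 to 0.299 with edgeR or DESeq2.

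Among the plasma membrane channels, *Orai1* (chromosome 5, 123015074 to 123030456), the pore of the store-operated current in T cells, had the lowest log2 fold change of the 10 genes, though on leaving out MAPK13-IN-1 replicate 2 it was -0.59 against -0.66 for *Stim2*. It was at 76.9 and 74.0 CPM in the DMSO libraries and at 38.4 and 50.2 CPM in the MAPK13-IN-1-treated libraries. Both treated libraries were lower, though they differed from each other more than the DMSO libraries did. The log2 fold change was -0.77 ± 0.108 with an edgeR adjusted p of 0.000128. *Orai2* (chromosome 5, 136147459 to 136170713), a channel subunit known to dampen the store-operated current when it assembles with Orai1, was at 40.1 and 42.9 CPM under DMSO and at 27.9 and 30.3 CPM under MAPK13-IN-1. Every treated library was below every DMSO library, at a log2 fold change of -0.51 ± 0.0858 and an edgeR adjusted p of 0.000412. *Orai3* (chromosome 7, 127769815 to 127775150), a mammalian paralog that also forms heteromeric channels, was at 19.8 and 20.9 CPM under DMSO and at 24.7 and 26.8 CPM under MAPK13-IN-1. The treated libraries were higher, at a log2 fold change of 0.34 ± 0.0965 and an edgeR adjusted p of 0.0109. Without DMSO replicate 2 the edgeR adjusted p of *Orai3* was 0.117, the highest of a range that began at 0.000210 over all alternatives.

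All IP3 receptor genes rose. *Itpr1* (chromosome 6, 108213096 to 108551109), which encodes a store release channel opened by IP3 and calcium, was at 165 and 169 CPM in the DMSO libraries and at 202 and 188 CPM in the MAPK13-IN-1-treated libraries. The treated libraries were above the DMSO libraries by a small margin, with a log2 fold change of 0.22 ± 0.0595 and an edgeR adjusted p of 0.00753. *Itpr2* (chromosome 6, 146108299 to 146502223), the receptor type with the highest affinity for IP3, was at 95.2 and 89.2 CPM under DMSO and at 133 and 124 CPM under MAPK13-IN-1. The groups were clearly separated, with a log2 fold change of 0.48 ± 0.0659 and an edgeR adjusted p of 0.000110. *Itpr3* (chromosome 17, 27057304 to 27122223), the type with the lowest affinity for IP3, was at 172 and 169 CPM under DMSO and at 238 and 251 CPM under MAPK13-IN-1. Its groups lay further apart than those of *Itpr1*, with a log2 fold change of 0.52 ± 0.0560 and an edgeR adjusted p of 1.92e-05. On leaving out DMSO replicate 2 the edgeR adjusted p of *Itpr1* was 0.115, and on leaving out DMSO replicate 3 it was 0.0524, with a range from 2.16e-07 to 0.115 over all alternatives of edgeR and DESeq2. *Itpr1* shares 108 exonic bases with the antisense gene *Gm44040*, which held 64 to 91 counts, and the count libraries were not stated to mark strand, so reads from this stretch cannot be assigned to either gene. It also shares 181 exonic bases with *Gm44101*, not matched in the count table, and *Itpr3* shares 233 with the antisense gene *Itpr3os*, which held 1 to 6 counts.

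The calcium pumps fell. *Atp2a3* (chromosome 11, 72961169 to 72993044), which encodes the SERCA3 pump that refills the ER in blood cells, was at 306 and 303 CPM in the DMSO libraries and at 218 and 235 CPM in the MAPK13-IN-1-treated libraries. The DMSO libraries were nearly equal and both above the treated libraries. The log2 fold change was -0.42 ± 0.0570 with an edgeR adjusted p of 9.24e-05. *Atp2b1* (chromosome 10, 98914406 to 99026143), which encodes the PMCA1 pump that expels calcium across the plasma membrane, was at 59.5 and 60.0 CPM under DMSO and at 49.9 and 44.5 CPM under MAPK13-IN-1. The treated libraries were lower, with a log2 fold change of -0.34 ± 0.0781 and an edgeR adjusted p of 0.00322. Coordinates are of build GRCm38. Scaling by library totals alone raised all genes by a median of 0.13 on the log2 scale, and the 10 genes kept their directions under it.

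Compared with each other per length, the 10 genes spanned a wide range in DMSO-treated cells. Each value here is a level in CPM per kilobase of exon, mean ± SD of 2 libraries. *Atp2a3* was the most abundant at 57.6 ± 0.412, followed by *Orai1* at 32.9 ± 0.899 and *Itpr3* at 18.9 ± 0.227. The remaining genes were *Stim2* at 11.5 ± 0.554, *Orai3* at 9.51 ± 0.365, *Itpr1* at 9.11 ± 0.172, *Stim1* at 7.73 ± 0.144, *Orai2* at 6.83 ± 0.332, *Itpr2* at 6.23 ± 0.288 and *Atp2b1* at 3.92 ± 0.0243. The neighbors *Orai3* and *Itpr1* were close, the lowest *Orai3* library at 9.26 and the highest *Itpr1* library at 9.23. In MAPK13-IN-1-treated cells *Atp2a3* was again first at 42.9 ± 2.33, and *Itpr3* at 27.1 ± 1.02 stood above *Orai1* at 19.3 ± 3.63. *Orai3* followed at 12.0 ± 0.717 and *Itpr1* at 10.6 ± 0.550. *Stim1* at 8.73 ± 0.526 and *Itpr2* at 8.68 ± 0.426 overlapped between libraries and were not separated. Below them were *Stim2* at 7.24 ± 0.0781, *Orai2* at 4.79 ± 0.274 and *Atp2b1* at 3.10 ± 0.251. The order was another in the replicate 1 pair, where *Orai1* was first and *Atp2a3* second under MAPK13-IN-1, and *Atp2b1* ranked 4 under DMSO and 6 under MAPK13-IN-1.

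Within families, the shares of several paralogs differed between treatments by more than the spread between libraries, which is given here without a test. A share is the percentage that a gene takes of the summed per-length level of its family, so it does not depend on library scaling. *Stim1* took 40.1% ± 0.706 (SD, n = 2) of the Stim family under DMSO and 54.7% ± 1.23 under MAPK13-IN-1, so the more abundant sensor per length was *Stim2* under DMSO and *Stim1* under MAPK13-IN-1, an order that did not hold without the length correction, where *Stim1* led in both groups. The share of *Orai1* was 66.8% ± 1.55 under DMSO and 53.2% ± 3.24 under MAPK13-IN-1, and that of *Orai3* was 19.3% ± 0.822 and 33.4% ± 2.30. *Orai2* had a share of 13.9% ± 0.731 and 13.3% ± 0.947, a difference smaller than the spread between libraries. The shares of the IP3 receptors differed less, with *Itpr3* at 55.2% ± 0.108 and 58.4% ± 2.14, *Itpr1* at 26.6% ± 0.767 and 22.9% ± 1.20 and *Itpr2* at 18.2% ± 0.659 and 18.7% ± 0.935, the last within the spread. *Atp2a3* took 56.8% ± 1.23 of the SERCA family under DMSO and 68.5% ± 0.00849 under MAPK13-IN-1, beside a larger fall of *Atp2a2*. *Atp2b1* took 24.1% ± 0.559 and 24.4% ± 0.955 of the PMCA family, in which *Atp2b4* held most of the rest. In the replicate 1 pair, under DMSO and then MAPK13-IN-1, the shares of *Orai1* (62.7% and 56.1%), *Orai3* (12.4% and 15.7%) and *Atp2a3* (32.3% and 34.6%) differed in the same direction as in replicates 2 and 3, as did those of the Stim genes. *Stim1* led *Stim2* in both libraries of the pair, at 59.2% and 68.5%, so the change of leading sensor was not seen there. The shares of *Itpr1* (49.6% and 68.2%) and *Itpr3* (28.5% and 20.3%) differed in the opposite direction. Those of *Itpr2* (21.9% and 11.5%), *Atp2b1* (45.1% and 39.5%) and *Orai2*, higher under MAPK13-IN-1 at 28.1%, had no difference beyond the spread in replicates 2 and 3 to compare with.

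**Figure D2:**
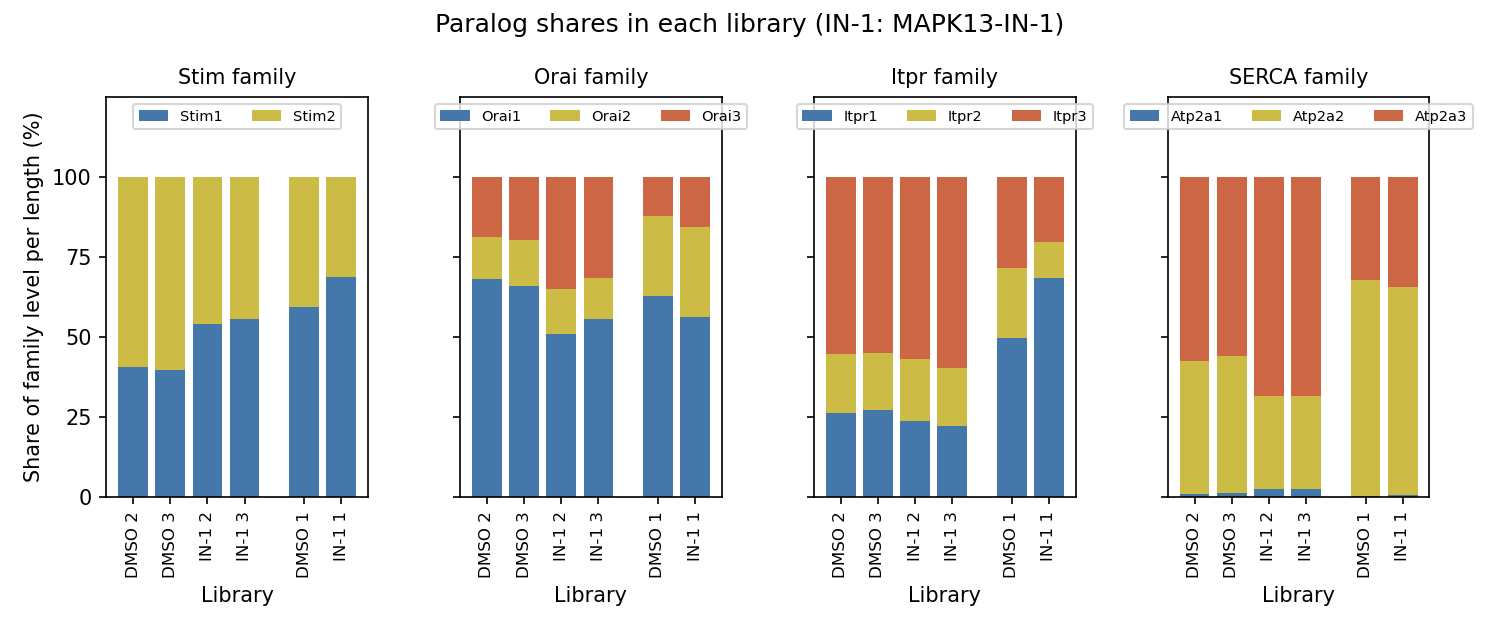
Share of each paralog (percent of the summed per-length level of its family) in the 4 count libraries and, set apart, in the replicate 1 pair. *Stim1* takes 40.1% of the Stim family under DMSO and 54.7% under MAPK13-IN-1 in replicates 2 and 3, and 59.2% and 68.5% in replicate 1.

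The second comparison used the replicate 1 pair, with 1 library per group and no replicate check. *Orai* and *Itpr1* transcripts were higher with MAPK13-IN-1, and the other genes differed less. The ratios are log2 of the FPKM plus a pseudocount of 1, which understates changes at low values. Of the 10 genes, 6 were higher with MAPK13-IN-1, beside 54.3% of the 10448 genes that reached 1 FPKM in each library. The median log2 ratio was 0.13, against 0.05 over those genes.

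*Stim1* was at 16.3 FPKM under DMSO and 19.7 under MAPK13-IN-1, a log2 ratio of 0.26. *Stim2* was at 11.3 and 9.07 FPKM, a log2 ratio of -0.28. Both sensors thus differed in the same direction as in replicates 2 and 3. *Orai1* was at 28.4 and 39.9 FPKM, a log2 ratio of 0.48, and so was higher where replicates 2 and 3 were lower. *Orai2* was at 11.3 and 20.0 FPKM, a log2 ratio of 0.77, again opposite to replicates 2 and 3. *Orai3* was at 5.61 and 11.2 FPKM, a log2 ratio of 0.88, in the same direction as there.

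*Itpr1* was at 14.0 and 27.2 FPKM, a log2 ratio of 0.91, close to that of *Orai3*, which was the larger at both smaller pseudocounts. *Itpr2* was at 6.18 and 4.57 FPKM, a log2 ratio of -0.37, opposite to its rise in replicates 2 and 3. *Itpr3* was at 8.04 and 8.10 FPKM, a log2 ratio of 0.01, so this gene was nearly equal in the pair. *Atp2a3* was at 37.6 and 31.5 FPKM, a log2 ratio of -0.25. *Atp2b1* was at 15.6 and 14.8 FPKM, a log2 ratio of -0.07. Altogether 7 of the 10 genes, counting the nearly equal *Itpr3*, had the same direction in both sets of libraries, as did 60.9% of the 10378 tested genes that reached 1 FPKM in each library of the pair. In the *Orai* family the sum was 45.3 FPKM under DMSO and 71.2 under MAPK13-IN-1 in the pair, whereas the summed per-length level in replicates 2 and 3 was 49.4 and 49.1 under DMSO and 32.8 and 39.4 under MAPK13-IN-1.

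**Figure D3:**
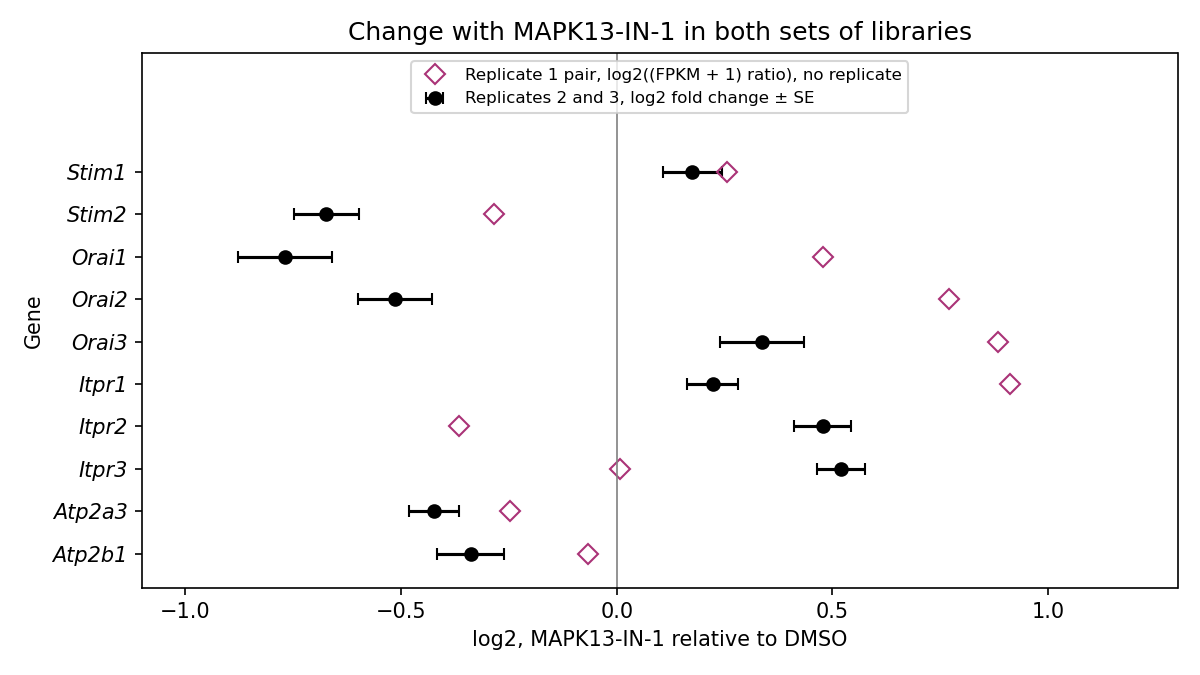
Change with MAPK13-IN-1 on the log2 scale. Black points are the edgeR log2 fold change ± SE from replicates 2 and 3, and open diamonds the log2 ratio of the replicate 1 pair (FPKM, pseudocount 1, no replicate). *Orai1*, *Orai2* and *Itpr2* lie on opposite sides of 0 in the 2 sets.

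The transcript of the inhibitor's target was low. *Mapk13* was at 3.06 and 2.72 CPM in the DMSO libraries and at 0.592 and 1.51 CPM in the MAPK13-IN-1-treated libraries, with a log2 fold change of -1.47 ± 0.363 and an edgeR adjusted p of 0.00490. The log2 fold change was -0.94 on leaving out MAPK13-IN-1 replicate 2 and -2.29 on leaving out MAPK13-IN-1 replicate 3. In the replicate 1 pair it was at 0.191 and 3.28 FPKM. The inhibitor acts on the protein, so the transcript does not check the labels.

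The other genes of the pathway were described from 8 lists, by their counts in replicates 2 and 3. The genes named first from each list, up to 3, had SEs from 0.0498 to 0.329 on the log2 scale and edgeR adjusted p of 0.000294 or less. The numbers that fell and rose in each list stand beside 32.3% and 31.5% of all genes tested. Among modulators of store-operated entry, 9 of 14 listed symbols were tested, 2 fell and 3 rose, or 5 rose with scaling by library totals. *Esyt1*, a tether of ER and plasma membrane, fell with a log2 fold change of -1.23, *Gramd2*, a protein of the same contact sites, rose with 2.93 from 19 and 15 counts to 172 and 169, and *Asph* rose with 1.42. Among genes of IP3 production and removal, 12 of 12 were tested, 7 fell and 5 rose. *Lcp2*, an adaptor of antigen receptor signaling, fell with -1.70, and *Itpkb*, which phosphorylates IP3, rose with 1.07. *Plcg1*, the phospholipase that makes IP3, rose with 0.33 (edgeR adjusted p = 0.00124). Among IP3 receptor partners and other release channels, 14 of 16 were tested, 3 fell and 5 rose, but 3 rose on leaving out DMSO replicate 2 or 3. *Erlin1*, which takes part in the degradation of IP3 receptors, fell with -1.55, *Lrmp* fell with -0.42, and *Tpcn2*, a lysosomal channel, rose with 0.92.

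Among other pumps and exchangers, 7 of 13 were tested, 2 fell and 3 rose, but 1 rose on leaving out DMSO replicate 2. *Atp2a2*, the SERCA2 pump, was at 254 and 268 CPM in the DMSO libraries and at 106 and 115 CPM in the MAPK13-IN-1-treated libraries, a log2 fold change of -1.24 ± 0.0635 (edgeR adjusted p = 1.60e-07), and its groups did not overlap. *Atp2b4*, the PMCA4 pump, fell with -0.37, and *Slc8a2*, a sodium calcium exchanger, rose with 2.07 from 13 and 12 counts to 78 and 61. Among ER calcium-binding chaperones, 13 of 14 were tested, 4 fell and 3 rose. *Calr*, the calcium buffer calreticulin, fell with -1.05, while *Calu* rose with 0.74 and *Pdia3* with 0.69. The count of 3 chaperones that rose was 6 with scaling by library totals and 5 on leaving out MAPK13-IN-1 replicate 2 or replicate 3. Among mitochondrial calcium genes, 12 of 12 were tested, 6 fell and 3 rose. *Smdt1*, a subunit of the calcium uniporter, fell with -1.51, *Letm1* fell with -1.30, and *Slc8b1*, which exports mitochondrial calcium, rose with 1.72.

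Among other plasma membrane channels, 13 of 14 were tested, 5 fell and 3 rose. *Trpm7* rose with a log2 fold change of 1.20, *Piezo1*, a mechanically gated channel, fell with -0.74, and *Trpm4* fell with -1.09. *Kcna3*, the potassium channel that keeps the membrane negative during calcium entry, was at 20.4 and 21.9 CPM under DMSO and at 20.1 and 19.8 CPM under MAPK13-IN-1, with an edgeR adjusted p of 0.480, and its direction turned with scaling by library totals. Among calmodulin, calcineurin and NFAT genes, 19 of 19 were tested, 8 fell and 4 rose. *Camkk2*, a calmodulin-dependent kinase, fell with -1.83, *Nfatc2* fell with -1.08 and *Nfatc1* with -0.26 (edgeR adjusted p = 0.00137), and *Ppp3ca*, a catalytic subunit of calcineurin, rose with 0.83. The median log2 fold changes of the 8 lists were 0.19, -0.35, 0.13, 0.24, 0.07, -0.20, -0.06 and -0.09 in the order given, against 0.01 over all genes tested. Over the alternative fits the first 4 ran from 0.098 to 0.32, -0.37 to -0.22, 0.10 to 0.25 and 0.068 to 0.78. The other 4 ran from 0.023 to 0.19, -0.24 to -0.077, -0.15 to 0.062 and -0.11 to 0.031. In the replicate 1 pair, some of the genes named from these lists differed in the direction opposite to replicates 2 and 3, without a test: *Calr* had a log2 ratio of 0.42, *Piezo1* 0.41, *Nfatc1* 0.48, *Atp2b4* 0.25, *Calu* -0.15 and *Plcg1* -0.13. In the pair *Trpm4* (0.03), *Letm1* (0.02) and *Slc8a2* (-0.0037) were nearly equal. *Kcna3*, not called in replicates 2 and 3, was at 12.1 FPKM under DMSO and 23.3 under MAPK13-IN-1 there, a log2 ratio of 0.89. The other genes named from these lists differed in the same direction as in replicates 2 and 3.

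Promoter sequences are shown for the Orai channels, whose paralogs moved in opposite directions in the count libraries. In the FPKM pair all Orai paralogs were higher with the inhibitor. RefSeq gave a window of 190 bases, ending 60 bases before the annotated start, for 9 of the 10 genes (build GRCm38.p6), and these were searched on both strands for CTTTG, letters within the Tcf/Lef recognition sequence, and for GGAAA, the core read by NFAT. CTTTG was found in 5 of the 9, against 40.9% of 32851 promoter windows of that length, and GGAAA in 2 of the 9, against 46.9%. The 9 were counted as genes, matched if any window held the letters, whereas the percentages were counted over windows. The windows lie at chr5:123014824-123015013 (plus strand), chr5:136170717-136170906 (minus strand) and chr7:127769565-127769754 (plus strand), and capitals mark CTTTG or its reverse complement CAAAG. The *Orai1* window overlaps an exon of the antisense gene *Gm2479*. A match describes the letters only.
Orai1: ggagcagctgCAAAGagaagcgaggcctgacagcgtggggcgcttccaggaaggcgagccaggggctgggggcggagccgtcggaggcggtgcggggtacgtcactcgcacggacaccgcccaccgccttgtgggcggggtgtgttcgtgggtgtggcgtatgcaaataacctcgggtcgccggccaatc
Orai2: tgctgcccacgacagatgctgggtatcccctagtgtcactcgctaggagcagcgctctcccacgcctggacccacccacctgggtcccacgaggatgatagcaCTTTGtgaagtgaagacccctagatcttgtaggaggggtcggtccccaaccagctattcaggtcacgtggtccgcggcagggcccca
Orai3: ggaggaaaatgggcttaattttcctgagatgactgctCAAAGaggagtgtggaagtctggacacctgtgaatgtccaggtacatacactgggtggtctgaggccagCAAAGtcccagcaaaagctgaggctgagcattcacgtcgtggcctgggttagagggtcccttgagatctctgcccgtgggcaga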

How the data were processed

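The authors deposited raw counts per gene for replicates 2 and 3, whole numbers without normalization, and 1 value per gene for each replicate 1 library, read here as FPKM from their range because the unit is not named. The submitters' processing notes list fastp 0.21.0, HISAT2 2.1.0, StringTie 2.1.5 and DESeq2 1.30.1 for the count libraries. The 10 genes and all lists were chosen with earlier results of these data known. Counts were fitted in R 4.3.3 with edgeR 4.0.16 (TMM scaling, filterByExpr with a minimum count of 10 and a minimum total of 15, glmQLFit and glmQLFTest, Benjamini-Hochberg adjustment over 16269 genes), and the fit was tested on simulated data. The SE is the absolute log2 fold change divided by the square root of F. CPM are counts relative to the TMM-scaled library size, and per-length levels divide them by the union of exons in GENCODE M21. From each pathway list up to 3 called genes with the smallest p-values were named, plus *Atp2a2*, *Kcna3*, *Plcg1*, *Nfatc1* and *Mapk13*, and from each marker list the most abundant gene per length and those at 0. The results of 2 listed genes are not reported here. *Trac*, *Trbc1*, *Trbc2*, *Ighm*, *Ighd* and 4 alias symbols of pathway genes were not matched. These aliases are counted among the 14 modulators of store-operated entry and the 16 IP3 receptor partners and release channels listed. The FPKM pair had no test. Alternatives were RLE, upper-quartile and library-total scaling, other count filters, DESeq2 1.42.0, a replicate block, leaving out each library, a threshold of 0.01 and pseudocounts of 0.1 and 0.01. Floors cover counting error only.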

Additional observations from a re-analysis of the deposited data

Results flagged for a closer look

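In 3 of the 10 calcium genes, and in *Mapk13*, the replicate 1 pair differed in the direction opposite to both MAPK13-IN-1-treated libraries of replicates 2 and 3, and the difference between the sets of libraries was not tested. Of all 10378 genes compared, 60.9% had the same direction in both sets, so opposite directions were common. *Orai1* was lower with MAPK13-IN-1 in replicates 2 and 3 and had a log2 ratio of 0.48 in the replicate 1 pair. *Orai2* was lower there as well and had a log2 ratio of 0.77 in the pair. *Itpr2* was higher in replicates 2 and 3 and had a log2 ratio of -0.37 in the pair. *Mapk13* was lower in replicates 2 and 3 and had a log2 ratio of 1.84 in the pair, from 0.191 to 3.28 FPKM. Library kit, processing, replicate number and marker content cannot be told apart in this contrast. The labels of replicate 1 also give no genotype, dose or time of addition. B cell markers summed to 52.3 and 36.5 FPKM in the pair, beside 1024 and 934 FPKM for T cell markers. In the count libraries they summed to 1142 and 1119 CPM under DMSO and to 1311 and 1334 CPM under MAPK13-IN-1. The T cell sums there were 1664 and 1695 CPM, and 903 and 1025 CPM.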

How the results depend on the processing

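All 110 fold changes of the 10 genes under the alternatives kept their direction, and 103 kept their call. Those that lost it were *Stim1* with DESeq2 (log2 fold change 0.18), and, on leaving out a library, *Stim1* (log2 fold changes of 0.11 to 0.24 over the libraries left out), *Orai3* (0.27 to 0.40) and *Itpr1* (0.17 to 0.27). A lone library left in a group is assumed to vary like the other group. The number of the 10 genes called higher was 5, and 2 without DMSO replicate 2, 3 without DMSO replicate 3 and 3 at an adjusted p under 0.01. Their median log2 fold change of -0.08 was -0.00099 with upper-quartile scaling, 0.044 with library totals (0.14 over all genes) and -0.037 with at least 10 counts in every library. *Kcna3*, not called, turned to 0.044 with library totals. With a replicate block, 10645 genes were called in place of 10374 and all 10 calcium genes stayed called. The deviations of same-numbered libraries had a correlation of 0.00500 across genes. With 2 libraries per group and all genes weighted alike, this value cannot decide whether the numbers mark a pairing. Of modulators of store-operated entry, 5 rose with library totals. Of chaperones, 5 rose with upper-quartile scaling, 6 with library totals and 5 on leaving out MAPK13-IN-1 replicate 2 or 3. Of release channels, 3 rose on leaving out DMSO replicate 2 or 3, and of pumps, 1 rose on leaving out DMSO replicate 2. These list alternatives were chosen after seeing the data. Shares of counts without length correction, under DMSO and then MAPK13-IN-1, were 57.5% and 70.9% for *Stim1*, 42.5% and 29.1% for *Stim2*, 54.9% and 44.5% for *Orai1*, 30.2% and 29.5% for *Orai2*, 14.8% and 26.0% for *Orai3*, 38.8% and 34.3% for *Itpr1*, 21.4% and 22.6% for *Itpr2*, 39.7% and 43.1% for *Itpr3*, 53.5% and 66.2% for *Atp2a3* and 28.2% and 28.6% for *Atp2b1*. On that scale *Stim1* was ahead of *Stim2* in both groups, so the change of leading sensor depends on the length correction. The pair ratios kept their direction at both other pseudocounts. The depth of the pair is unknown.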
